A study of Drosophila melanogaster with 4 samples.

Results

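The H3K36me1 regions along the X chromosome of Drosophila melanogaster numbered 1502 of the 8190 regions of enrichment deposited for the whole series. They were taken from the whole-series list by chromosome and by a start at or below 20422827, which leaves out the last 2 Mb at the centromere end of the 22422827 bp of X. Positions follow FlyBase release 5, as the file headers state, and count from 1. The same rule gave 1010 of 5645 regions in replicate 1 and 1005 of 5725 regions in replicate 2. The regions came from chromatin immunoprecipitation followed by sequencing (ChIP-seq) of nuclei of larvae of the third instar. The strain was Oregon-R, a laboratory wild type, and the labels name no mutation or treatment. The series had 2 samples of H3K36me1 ChIP and 2 of input, of which the input was not analysed here. The labels number the ChIP samples as replicates without saying whether each had its own collection of larvae, so differences between them could be technical. The labels state neither the sex nor the tissue of the larvae.

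H3K36me1 is the monomethylated state of a lysine in the tail of histone H3, which can also carry further methyl groups, and different proteins bind the different states. In Drosophila the trimethylated state of this lysine is laid down by Set2 along transcribed genes, and the lower states are linked to the enzymes NSD and Ash1. The X is present in a single copy in males, where the MSL complex, a set of proteins and roX RNAs, raises transcription of its genes and binds preferentially at active genes that carry the trimethylated state. The lists hold positions and no gene names, and no gene positions of release 5 were used, so genes are not named for any region.

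The rule cut X at a stretch without regions. In the whole-series list the last region inside the limit lay at 20394762 to 20395833 (score 0.32), and the first outside it at 20525656 to 20527057 (score 0.44). The replicates had their last inside region at 20388235 (score 0.69) and 20388586 (score 0.50), and their first outside region at 20528509 (score 1.15) and 20528540 (score 1.02). The score is the authors' own value for each region, and its scale is not stated. Coverage of the 2 Mb beyond the limit was 6.88% in replicate 1 and 6.51% in replicate 2.

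H3K36me1 regions covered between 22% and 25% of X up to the limit, in many short regions and a small number of broad ones. Coverage was 24.2% in replicate 1 and 22.3% in replicate 2, which is 23.3% ± 1.38 (SD, n = 2), or 4.95 and 4.55 Mb. The whole-series list covered 31.9%. The median width was 2404 bp in replicate 1, 2347 bp in replicate 2 and 2054 bp in the whole-series list. The narrowest regions measured 1304 and 1301 bp in the replicates and 1001 bp in the whole-series list, so the whole-series list held short regions of a kind that neither replicate list held. Depth of the libraries is unknown, which leaves the precision of a boundary or a score unknown as well.

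Broad regions of at least 10 kb held much of the marked length of X. They numbered 116 in replicate 1, 102 in replicate 2 and 135 in the whole-series list. Their share of the regions of X was 11.5% and 10.1% in the replicates, against 11.6% and 10.5% of the regions of all sequences, and 8.99% in the whole-series list, against 9.71%. Among the 4 autosomal arms the share went from 11.2% to 12.3% and from 9.80% to 11.7% in the replicates, ranges that hold the share of X, and from 9.39% to 11.4% in the whole-series list, where X was lower than each arm. These broad regions held 45.2% of the covered length in replicate 1 and 41.7% in replicate 2, while regions under 2 kb held 12.4% and 13.9%. On the autosomal arms broad regions held 44.8% to 49.7% and 41.3% to 47.2%, so X lay near the low end of both ranges. The widest region of X was narrow beside that of each autosomal arm. It measured 55.7 kb in replicate 1, 49.1 kb in replicate 2 and 72.0 kb in the whole-series list. The widest regions of arms 2L, 2R, 3L and 3R, without the 2 Mb at their centromere ends, measured from 90.6 to 166.5 kb, from 65.2 to 162.8 kb and from 91.1 to 170.4 kb in the same lists. A widest region is a single value of each list, and no test was made of it.

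The 10 widest whole-series regions that met both replicates lay in 8 of the 21 windows of 1 Mb along X and together spanned 0.52 Mb. A pair of lists was taken to meet at a region when they shared at least 1 bp. Their widths went from 41.7 to 72.0 kb and their whole-series scores from 0.64 to 1.62. The widest was at 3237962 to 3310010, and scored 1.62 in the whole-series list. Replicate 1 held it as 2 regions, at 3238311 to 3282498 (score 1.64) and at 3282528 to 3309945 (score 1.73). Replicate 2 held it as 3 regions, at 3238338 to 3282406 (score 1.53), at 3282613 to 3284560 (score 0.48) and at 3284746 to 3310006 (score 1.73). The break in both replicates thus lay at nearly the same place, and the outer edges of the domain differed by 27 bp at the start and 61 bp at the end. A further region of 40.2 kb with a whole-series score of 1.59 began 4275 bp after it.

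The other widest domains ranged from evenly marked blocks to loosely joined ones. The region at 11387025 to 11430039 (43.0 kb) was a single region in each replicate, with scores of 1.51 in replicate 1 and 1.35 in replicate 2 and coverage of 99.8% and 99.7%. At the other extreme, the region at 4470076 to 4511757 (41.7 kb) was 6 regions in replicate 1 and 11 in replicate 2, which covered 81.4% and 71.8% of it. Its whole-series score, 0.64, was the lowest of the 10, and its best pieces scored 0.90 in replicate 1 and 0.83 in replicate 2. The region at 7500311 to 7565735 (65.4 kb) was 3 regions in replicate 1 and 5 in replicate 2, with a best score of 1.10 and 1.07. The region at 5886838 to 5929630 (42.8 kb) was 5 regions in each replicate, which covered 87.6% and 90.1% of it. Replicate 2 split 7 of the 10 domains into more pieces than replicate 1, and the other 3 into as many. Over all 135 whole-series regions of at least 10 kb, 58 were split in replicate 1 and 66 in replicate 2, and 61 were a single region in both.

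The 10 best-scoring and the 10 widest whole-series regions that met both replicates were different regions. Over all whole-series regions of X, however, width and score went together, with a Spearman's rho of 0.70. The 10 best-scoring scored from 1.65 to 2.01, spanned 7.76 to 36.8 kb, of which 3 were under 10 kb, and shared no member with the 10 widest. The widest domain, at 3237962, came close, with a whole-series score of 1.62 and a best piece of 1.73 in each replicate. The whole-series list belongs to the same samples, so a high replicate score is no independent support for the ranking. Of the 10 best-scoring, 9 were a single region in each replicate, and 9 scored higher in replicate 1 than in replicate 2. The first was at 15697931 to 15706614 (8.68 kb), with scores of 2.09 in replicate 1 and 1.96 in replicate 2. It was followed after 114 bp by the region at 15706729 to 15717968 (11.2 kb), with scores of 1.87 and 1.76, so that the first and the fourth of the ranking stood side by side. The second and the sixth were neighbours too. They lay at 12606005 to 12629032 (23.03 kb, scores of 2.09 and 1.91) and, 1795 bp further on, at 12630828 to 12644377 (13.6 kb, scores of 1.73 and 1.60).

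The remaining best-scoring regions stood in other windows. The third was at 10608737 to 10639180 (30.44 kb), with scores of 1.81 in replicate 1 and 1.73 in replicate 2, and its ends in the replicates differed by 4 bp while its starts differed by 498 bp. The fifth, at 4561989 to 4573872 (11.9 kb), was the only one of the 10 with the higher score in replicate 2, at 1.75 in replicate 1 and 1.78 in replicate 2. The others were at 6868173 to 6903233 (35.1 kb), 3638431 to 3648234 (9.80 kb), 2031569 to 2039325 (7.76 kb) and 2528262 to 2565060 (36.8 kb). Their scores lay between 1.72 and 1.78 in replicate 1 and between 1.56 and 1.62 in replicate 2. The lowest coverage of any of the 10 by a replicate was 86.4%, for the region at 15706729 in replicate 2. The ranking follows the whole-series score, and the replicates would order the regions otherwise. The region at 6756161 to 6772977 in replicate 1 met that at 6756502 to 6773273 in replicate 2. They scored 1.97 and 1.89, above the third of the ranking in both replicates, and were not among the 10. The region at 2021737 to 2030990 in replicate 1 scored 1.77, and its partner in replicate 2 1.87. Both lay within a wider whole-series region with a score of 1.49.

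Coverage along X alternated between well and poorly marked windows. Over the 20 full windows of 1 Mb, mean coverage of the replicates had a median of 24.6%, with a lowest value of 11.6% and a highest of 39.5%. The most covered window was 13 to 14 Mb from the telomere end, with 41.4% in replicate 1 and 37.7% in replicate 2. The next were 1 to 2 Mb, with 36.5% and 31.8%, and 6 to 7 Mb, with 32.9% and 29.4%. The least covered were 14 to 15 Mb, with 11.8% in replicate 1 and 11.4% in replicate 2, 5 to 6 Mb, with 14.7% and 13.7%, and 0 to 1 Mb, with 16.3% and 15.4%. The most and the least covered windows were therefore next to each other. Between replicates a window differed by 1.80 percentage points (median) and never by more than 4.76, while the SD over windows was 7.21 points. Replicate 1 covered more in 19 of the 20 windows, the exception being 4 to 5 Mb, with 24.9% in replicate 1 and 26.3% in replicate 2. Spearman's rho between the replicates over the 20 windows was 0.95, a description of 1 pair of samples that share the same windows.

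**Figure D1:**
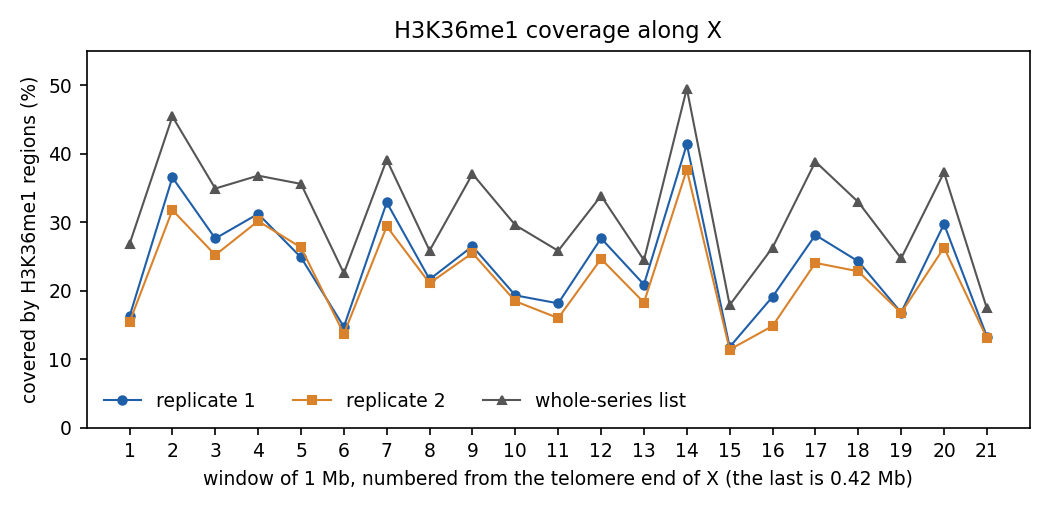
Percent of each 1 Mb window of X covered by H3K36me1 regions (vertical axis), with windows numbered from the telomere end (horizontal axis), for replicate 1, replicate 2 and the whole-series list. Window 14 is the highest and window 15 the lowest full window in both replicates (41.4% and 37.7%, then 11.8% and 11.4%), and the whole-series list lies above both replicates throughout.

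The score of the regions was weakly related to coverage from window to window. The median score per window went from 0.57 to 0.81 in replicate 1 and from 0.61 to 0.81 in replicate 2. The highest median in both belonged to 12 to 13 Mb, which was covered to 20.9% and 18.3%, below the median window. That window had 34 regions in replicate 1 and 33 in replicate 2, among windows that held 30 to 76 and 33 to 69. It also held the neighbouring best-scoring regions at 12606005 and 12630828. The lowest median belonged to 10 to 11 Mb in replicate 1 (0.57) and to 15 to 16 Mb in replicate 2 (0.61), although the best-scoring region of X lay at 15 to 16 Mb. Spearman's rho of coverage and median score over the 20 windows was 0.28. This correlation is a description, since both values come from the same regions.

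The longest empty stretch of X lay in the window just after the most covered one. The most covered window held 3 of the 10 widest domains. The first of them, at 13109488 to 13156261, was 46.8 kb wide. The other 2, at 13776878 to 13832785 (55.9 kb) and at 13834635 to 13889754 (55.1 kb), were separated by 1849 bp. With regions no more than 2 kb apart joined into chains, these 2 and 4 smaller ones formed a chain of 123.8 kb at 13769614 to 13893442, the longest chain of X in the whole-series list, of which 96.1% was covered. Replicate 1 gave the domain at 13834635 a single region with a score of 1.46. Replicate 2 split it into 2, with a best score of 1.44. The neighbour at 13776878 scored 1.09 in its main region of 55.7 kb in replicate 1. In replicate 2 it was divided into 4 regions with scores of 0.88 to 1.17.

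The longest stretch of X with no region in either replicate ran from 14150571 to 14546038 and measured 395.5 kb. No whole-series region lay inside it, and 2 regions reached over its ends by 0.66 kb in all. In replicate 1 by itself the next region began at 14693272. Of the adjoining 602.3 kb towards the telomere, regions covered 39.3% in replicate 1 and 37.0% in replicate 2. Of the adjoining 602.3 kb towards the centromere, they covered 15.1% and 14.9%. Whether reads can be aligned over this stretch was not tested.

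Long stretches without regions made up much of X. In each replicate by itself, distances of more than 50 kb between regions numbered 84 and 89 on X. On the autosomal arms, which differ in length, they numbered 74 to 106 and 73 to 105. The union of the replicates left 81 stretches of more than 50 kb, which together spanned 8.77 Mb, or 43.0% of X up to the limit. The median stretch was 3160 bp. After the longest, the next were at 19797561 to 20051801 (254.2 kb), 4601408 to 4804172 (202.8 kb), 12152825 to 12350352 (197.5 kb) and 5005953 to 5199655 (193.7 kb). The whole-series list placed no region inside the first 2 of these, 4 inside the third, of at most 1778 bp, and 7 inside the fourth, of at most 1466 bp. The sides of a stretch could differ in score. The last region before the 254.2 kb stretch scored 1.81 in replicate 1 and 1.55 in replicate 2. The first after it began at different positions, 20051802 in replicate 1 (score 0.39) and 20062777 in replicate 2 (score 0.36).

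Regions stood close together between such stretches. The median distance to the next region was 3345 bp in replicate 1, 3535 bp in replicate 2 and 2090 bp in the whole-series list. In the replicates 15.0% and 13.4% of these distances were under 500 bp, and in the whole-series list 19.5%. On the autosomal arms these shares were 14.5% to 16.9%, 13.8% to 16.3% and 19.4% to 21.7%. X was thus below each arm in replicate 2 and among them in the other lists. Its median distance lay among those of the arms in each list. Joined where no more than 2 kb apart, the regions of replicate 1 formed 629 chains and those of replicate 2 formed 653, of which 63.9% and 68.9% were a single region. Chains of at least 10 kb held 68.8% of the covered length of replicate 1 and 64.2% of that of replicate 2. The longest chain was the same domain in both replicates, at 3238311 to 3309945 (71.6 kb) and at 3238338 to 3310006 (71.7 kb). Neighbouring regions had weakly related scores, with a Spearman's rho of 0.10 and 0.12 in the replicates, across regions that are not independent.

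The replicates placed most regions of X at the same positions, and no region of at least 5 kb lacked a partner in the other list. Replicate 1 had 772 of 1010 regions that met replicate 2, a share of 76.4% (95% interval by Wilson's method, 73.7% to 78.9%), against 80.1% over all sequences. Replicate 2 had 853 of 1005 that met replicate 1, a share of 84.9% (82.5% to 87.0%), against 84.2% over all sequences. The intervals reflect counting error alone and treat regions as independent, which neighbours are not. The replicates together marked 5.40 Mb, of which 4.11 Mb (76.1%) were common to both. Replicate 1 alone held 0.84 Mb and replicate 2 alone 0.44 Mb. On the autosomal arms the shared part was between 78.0% and 79.5%, and replicate 1 met replicate 2 in 79.7% to 82.0% of regions. X was below all 4 arms in both values, with no test of the difference. In the other direction X was among the arms, on which replicate 2 met replicate 1 in 84.4% to 86.4% of regions.

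Regions of X without a partner in the other replicate were mostly short. They held 0.41 Mb in replicate 1 and 0.25 Mb in replicate 2. The rest of the 0.84 Mb and 0.44 Mb held by 1 replicate alone lay in regions that had a partner. In replicate 1, 47.4% of regions under 2 kb met the other replicate (179 of 378), and 89.9% of those of 2 to 5 kb (349 of 388). In replicate 2 the shares were 65.6% (258 of 393) and 95.7% (378 of 395). All 128 regions of 5 to 10 kb and all 116 of at least 10 kb in replicate 1 did, as did all 115 and all 102 in replicate 2. Chance meetings, which are likelier for wide regions, were not estimated. The shares by width class are given for X alone, so whether they are particular to X cannot be said. In replicate 1, the 238 regions without a partner had medians of 1585 bp in width and 0.53 in score, and those with a partner had 3220 bp and 0.71. In replicate 2, the 152 without a partner had 1560 bp and 0.59, and those with a partner 2705 bp and 0.69. Under 2 kb in replicate 2 the order of the scores was the other way, with 0.58 for regions without a partner and 0.54 for regions with one. In replicate 1 these medians were 0.51 and 0.52.

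Where a region of one replicate met exactly 1 region of the other, most edges lay within 500 bp, though less closely than on each autosomal arm. There were 590 such pairs on X. Starts differed by a median of 180 bp and ends by 170 bp, against 128 to 154.5 bp and 130.5 to 151 bp on the arms. On X, 79.5% of starts and 79.8% of ends lay within 500 bp of each other, against 81.9% to 85.2% and 80.9% to 84.1%. Pearson's r of the scores was 0.94, within the 0.93 to 0.95 of the arms. Spearman's rho was 0.849, against 0.853 to 0.884. Both are a description across regions of 1 pair of samples. The matched regions of X also scored higher, with medians of 0.69 in replicate 1 and 0.68 in replicate 2. On the arms these medians were 0.56 to 0.57 and 0.56 to 0.58. The median absolute difference in score was 0.081, against 0.070 to 0.073 on the arms, not scaled to the score and with no test. The largest on X was 0.37. That pair lay at 9057891 to 9060849 in replicate 1, with a score of 0.86, and at 9058107 to 9060810 in replicate 2, with a score of 0.49. The next was at 7952126 to 7955059 in replicate 1, with a score of 1.48, and at 7952524 to 7954884 in replicate 2, with a score of 1.11. The pair at 13290708 had scores of 1.33 in replicate 1 and 0.98 in replicate 2. In the other direction, the pair at 17694660 scored 0.37 in replicate 1 and 0.70 in replicate 2, and the pair at 5916131 scored 0.59 and 0.91. In each of these 5 pairs the replicate with the higher score also had the wider region.

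Matched regions of X were wider in replicate 1. Of the 590 pairs, 400 were wider in replicate 1 (67.8%), and the median difference in width, replicate 1 minus replicate 2, was 166 bp. The start lay a median of 81.5 bp further out in replicate 1 and the end 75 bp further out. On the autosomal arms the median difference in width was between 89 and 98.5 bp, and 59.9% to 63.7% of pairs were wider in replicate 1. The score was higher in replicate 1 in 344 pairs (58.3%), with a median difference of 0.028, against 52.7% to 54.3% of pairs and 0.0082 to 0.016 on the arms. X therefore lay outside the range of the 4 arms in each of these values, and the difference was not tested. The score difference changed with width. By the mean width of the replicates, its median was -0.023 for 156 pairs under 2 kb and 0.025 for 293 pairs of 2 to 5 kb. It was 0.081 for 72 pairs of 5 to 10 kb and 0.082 for 69 pairs of at least 10 kb.

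**Figure D2:**
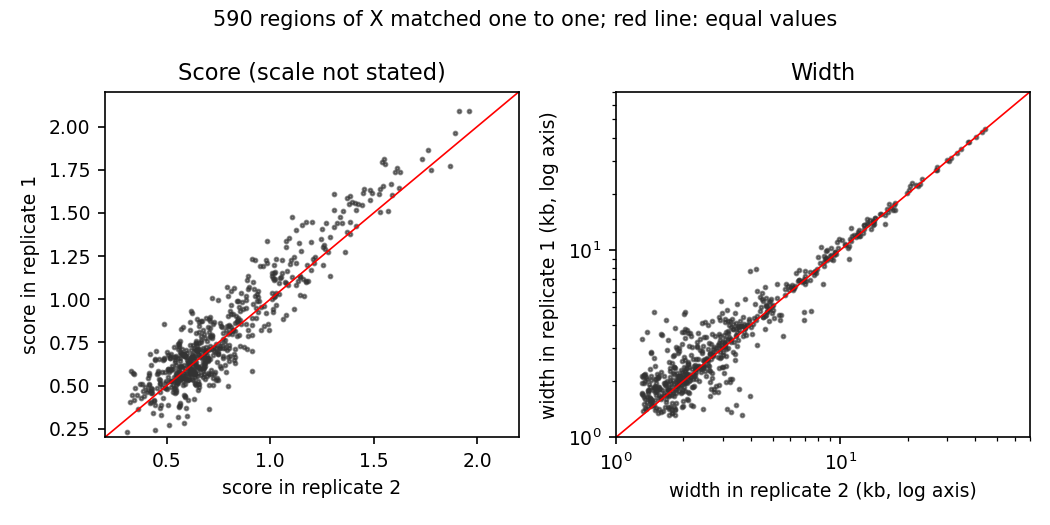
Scores (left) and widths (right, log axes, in kb) of the 590 regions of X that met one to one, with replicate 1 on the vertical and replicate 2 on the horizontal axis, 1 point a region and a red line at equal values. Points of high score lie mostly above the line, and 400 of the 590 pairs are wider in replicate 1.

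The whole-series list added many short regions to X that neither replicate held. Both replicates met 674 of its 1502 regions, a share of 44.9% (95% interval by Wilson's method, 42.4% to 47.4%), against 46.8% over all sequences. Replicate 1 alone met 203, replicate 2 alone met 125, and 500 were met by neither. This last share was 33.3% (31.0% to 35.7%), against 31.5% over all sequences. On the autosomal arms both replicates met 46.8% to 49.0% of the regions, and neither met 30.3% to 31.4%. X lay outside the range of the 4 arms in both shares, and the difference was not tested. The median width was 4469 bp for the 674 regions, which added up to 5.13 Mb. It was 1326 bp for the 500 regions, which added up to 0.72 Mb, and 460 of them were under 2 kb. Of all 730 whole-series regions under 2 kb, 56 met both replicates (7.67%), while 316 of 466 from 2 to 5 kb did (67.8%), 167 of 171 from 5 to 10 kb (97.7%) and all 135 of at least 10 kb. Shares by width class are again given for X alone and are not set beside the arms. Conversely, 2 regions of each replicate lay outside the whole-series list.

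**Figure D3:**
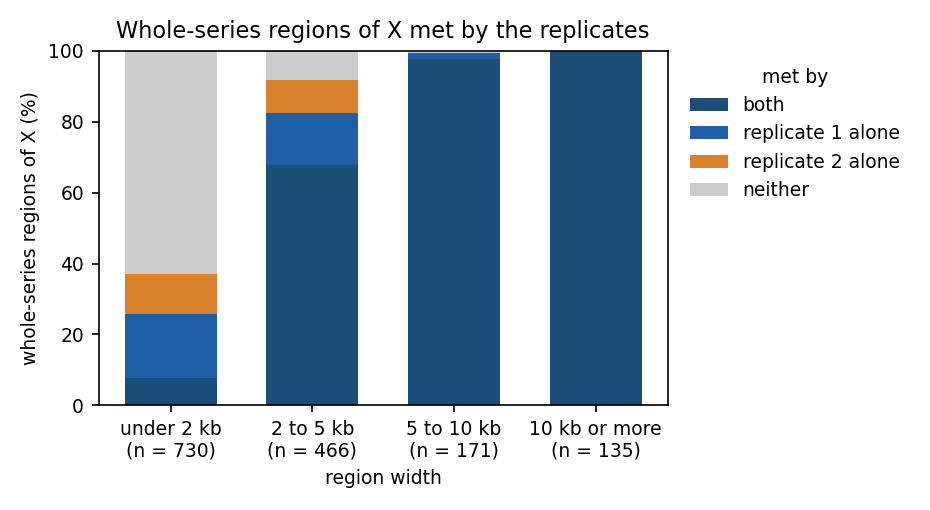
Share of the whole-series regions of X (vertical axis, percent) that met both replicates, 1 of them or neither, in 4 classes of width (horizontal axis, with the number of regions). Of the 730 regions under 2 kb, 63.0% met neither replicate, and all 135 of at least 10 kb met both.

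Short whole-series regions that met neither replicate did not have low scores for their width. Under 2 kb their median score was 0.39, and that of regions which met both was 0.36. From 2 to 5 kb the order was the reverse, with 0.41 for regions that met neither and 0.55 for those that met both. The best-scoring region that met neither was at 800601 to 801653 (1053 bp, score 0.96), followed by 12275802 to 12277094 (1293 bp, score 0.94) and 6464567 to 6465578 (1012 bp, score 0.83). All 3 were narrower than the narrowest region of either replicate list. The widest that met neither was at 17757542 to 17762891 (5350 bp, score 0.34), followed by 18899162 to 18903008 (3847 bp, score 0.39) and 3354573 to 3358334 (3762 bp, score 0.38). These low-scoring regions were wider than the narrowest region of either replicate list, and why the replicate lists lack them was not tested. The share that met neither varied along X, from 18.4% of 76 regions at 6 to 7 Mb to 50.5% of 91 regions at 8 to 9 Mb.

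The median and the lower and upper percentiles of the region scores were higher on X than on each autosomal arm. The median was 0.66 in replicate 1 and 0.67 in replicate 2 on X, against 0.54 to 0.55 and 0.57 to 0.58 on the 4 arms. At the 5th percentile the scores of X were 0.41 and 0.43, against 0.31 and 0.34 on the arms together, a difference of 0.10 in replicate 1 and 0.095 in replicate 2. At the 90th percentile they were 1.19 and 1.13, against 1.09 and 1.03, a difference of 0.11 in each. At the 95th percentile the difference was 0.15 in each. The lowest score of any region was 0.23 and 0.31 on X, against 0.15 to 0.18 and 0.11 to 0.22 on the arms. The highest score of X lay among those of the arms, at 2.09 and 1.96 on X, against 1.84 to 2.28 and 1.74 to 2.06. No test of X against the arms was made, since the regions of X come from a single chromosome. The sex of the larvae and the scale of the score are not stated. The copy number of X relative to the autosomes is therefore unknown, and its effect on the score was not tested.

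Among regions of like width the median score was also higher on X, by 0.031 in replicate 1 and 0.098 in replicate 2 in the broadest class. Under 2 kb the median score was 0.51 in replicate 1 and 0.55 in replicate 2 on X, against 0.43 and 0.45 on the arms together. From 2 to 5 kb it was 0.68 and 0.70 on X, against 0.59 and 0.62. From 5 to 10 kb it was 0.96 and 1.00 on X, against 0.82 and 0.83. At 10 kb or more it was 1.16 and 1.18 on X, against 1.13 and 1.08, and in replicate 1 the X median lay within the range of the arms, 1.11 to 1.17. In the whole-series list the difference of X from the arms was 0.066 under 2 kb, 0.072 from 2 to 5 kb and 0.070 in both broader classes. The widths of X were not longer at the broad end, since regions of at least 10 kb were 11.5% and 10.1% of the regions on X, against 11.7% and 10.9% on the arms together.

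**Figure D4:**
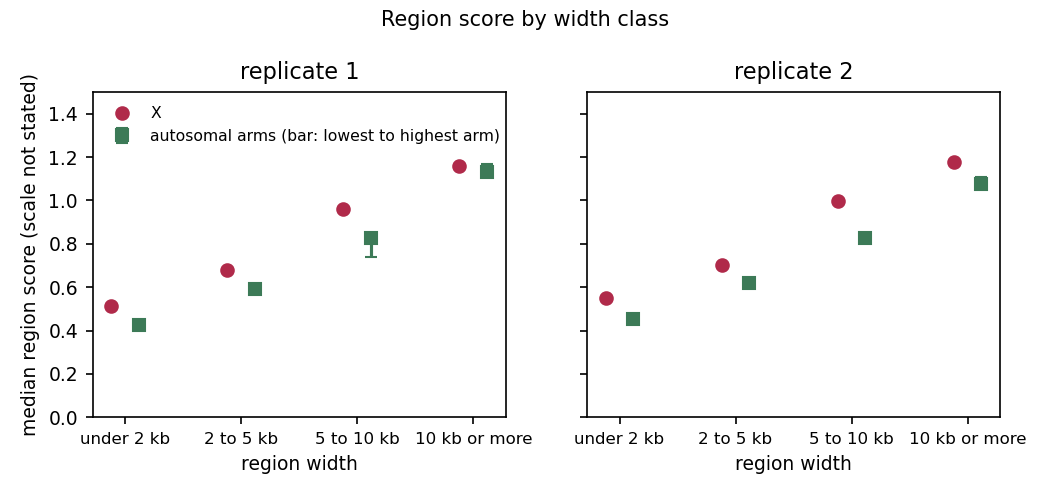
Median region score (vertical axis, scale not stated) in 4 classes of width (horizontal axis) for X and, to its right, the 4 autosomal arms together, in each replicate; bars span the lowest to the highest arm. X lies above the arms in each class, except that its median of 1.16 at 10 kb or more in replicate 1 falls within the bar of 1.11 to 1.17.

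In number and coverage X stood among the arms. It had 49.5 regions per Mb in replicate 1 and 49.2 in replicate 2, against 44.6 to 53.8 and 44.7 to 54.9 on the arms. Its coverage of 24.2% and 22.3% lay within 22.4% to 25.9% and 21.5% to 24.99%. The median width, 2404 and 2347 bp on X, was above the 2218 to 2322 bp and 2191 to 2250 bp of the arms. In the whole-series list it lay among them, at 2054 bp on X, against 1998 to 2056 bp. The upper quartile of width was 4784 and 4379 bp on X, against 4544 to 4863 bp and 4452 to 4817 bp on the arms, so that X lay below each arm in replicate 2. Width and score went together on X as elsewhere, across regions that are not independent. Spearman's rho was 0.838 in replicate 1 and 0.815 in replicate 2, against 0.841 to 0.855 and 0.823 to 0.838 on the arms. X was slightly below each arm in both replicates, with no test of the difference.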

How the data were processed

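H3K36me1 ChIP-seq of 2 samples was analysed from 3 deposited region lists in GFF3, 1 for each ChIP sample and 1 for the whole series. Per the submitters' processing notes, reads were aligned with Bowtie 0.12.7. Neither the region caller, nor its settings, nor how the whole-series list was made from the replicates is stated in the labels or headers. The score of each region was deposited by the authors without its scale, and starts and ends are in FlyBase release 5, per the file headers. Scores were used to describe and rank regions within a list, and are set side by side across lists on the assumption of 1 scale.

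The members, the lists and the comparisons were chosen with earlier results of these data known. Lists met when they shared at least 1 bp. Autosomal arms were taken without the 2 Mb at their centromere ends. The text names the 10 best-scoring and 10 widest whole-series regions that met both replicates, 3 of each that met neither, the 3 most and 3 least covered full windows, the 5 longest empty stretches, the 5 matched pairs of largest score difference and the regions at the start limit. Windows, chains, neighbours and regions named for a lowest or highest value were chosen after their values were seen. The 2 samples belong to 1 group, so no groups of samples were compared, and no test was made over samples or over regions. The overlap functions were tested on simulated lists against base-by-base counting. Alternatives were the whole-series list, the best-scoring 50%, regions joined within 1 kb, an overlap of 50%, all of X, windows of 0.5 and 2 Mb, width classes and each replicate left out. Python 3.11.15, numpy 2.4.6, pandas 2.3.3, scipy 1.17.1 and matplotlib 3.10.9 were used. Library depth is unknown.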

Additional observations from a re-analysis of the deposited data

How the results depend on the processing

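Of 45 alternative values for 10 results, 24 stayed within the replicate SD, within the counting interval or, for region numbers, within a factor of 1.5, and none changed sign. For 10 of these 24 a replicate was left out, which moves a mean of 2 by less than 1 SD by construction. A change of sign was in practice possible only for the score difference of X from the arms. The factor of 1.5 is a wide limit, since it took in 1010 and 1005 regions in the replicate lists, against 1502 in the whole-series list. It also took in 1014 regions after joining within 1 kb. Without 1 replicate the median width was 2347 to 2404 bp, coverage 22.3% to 24.2%, the median score 0.66 to 0.67, the share of length in regions of at least 10 kb 41.7% to 45.2%, and the score difference of X from the arms 0.09 to 0.11. With the whole-series list the median width was 2054 bp, coverage 31.9%, the median score 0.44, the SD of coverage over windows 8.02 points (7.25 as the mean of the SDs of the replicates) and the score difference 0.067; the cause was not tested. The best-scoring 50% of each list, a selection on the score, was taken over all sequences and kept 1035 of the 1502 whole-series regions of X. With it the median width was 3398 bp, coverage 20.6%, the median score 0.75 and the shared length 76.5%. Both replicates met 60.2% of the whole-series regions so kept. Joining regions within 1 kb gave a median width of 2898 bp, 56.6% of the length in regions of at least 10 kb and a shared length of 76.7%. On all of X, coverage was 21.8%, since the added end was poorly covered, and the shared length was 76.0%. When 50% of a region had to be overlapped, 40.1% of the whole-series list met both replicates. The SD over windows was 9.66 points with windows of 0.5 Mb and 4.46 with 2 Mb. The score difference was 0.086 for 2 to 5 kb, 0.15 for 5 to 10 kb and 0.064 for 10 kb or more. The number of whole-series regions could not be given without a replicate, because the labels do not say how that list was made from the replicates. The alternatives for genes were not run. No paired analysis was possible because the input samples gave no values used here. Depth, which is unknown, limits all values.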
